A study of Rattus norvegicus with 4 samples.

Results

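The genes described here act in iron uptake, transport and export and in haem synthesis and breakdown: Tf, Tfrc, Scara5, Lcn2, Hamp, Slc11a2, Slc39a14, Cp, Alas2 and Hmox1. They were chosen by name, and every probe set whose only platform gene symbol is 1 of the 10 names was taken. This gave 14 probe sets for 9 of the 10 genes, out of 31099 probe sets and 14218 named genes in all. Tf, which encodes transferrin, has no probe set of its own, since the 2 probe sets that list it also list Srprb, and it has no value here. The names were picked with results of the same 4 arrays known, so their values are a description and not a test, and no p is given for them.

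The samples were Sertoli cells, the somatic nurse cells of the seminiferous tubule, taken from 20-day-old male Sprague-Dawley rats and kept without serum for 72 h. The 2 control samples had no treatment, and the 2 cAMP samples were cultured with cAMP, which follicle-stimulating hormone raises inside Sertoli cells. Which cAMP compound was added, and at what dose, is not stated in the labels. The labels call the samples biological replicates but do not say whether they came from separate preparations, so the errors cover the spread among these arrays and may be technical in part. RNA was hybridised to one-colour Affymetrix arrays, and the single comparison of the series is cAMP against control.

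Iron travels in blood bound to transferrin. It enters cells when the transferrin receptor takes the complex into an endosome, from which a metal transporter carries the iron to the cytosol. Sertoli cells make their own transferrin and are held to pass iron to the germ cells behind the blood-testis barrier. Other routes bring in ferritin, siderophores or free iron. Cells store iron in ferritin, build it into haem and iron-sulphur clusters, and export it through ferroportin with the help of a ferroxidase, a step that the hormone hepcidin blocks.

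Most of these genes differed between the groups, and in both directions. With cAMP, the ferritin receptor gene Scara5 went from background to a bright signal. The siderophore carrier gene Lcn2 was 15.7-fold, the hepcidin gene Hamp 18.8-fold and the erythroid haem synthesis gene Alas2 22.6-fold brighter, as ratios of the mean signals. The metal transporter genes Slc11a2 and Slc39a14 were 2.52-fold and 2.67-fold brighter by their brighter probe sets, and the ferroxidase gene Cp was 2.77-fold dimmer. Tfrc and Hmox1 did not differ beyond the spread of their arrays. Of the 13 probe sets that were bright enough to be tested, 7 were higher with cAMP, 3 were lower and 3 did not pass, where passing means an adjusted p below 0.05 by limma over all tested probe sets. The same fit called 13.7% of the 18625 tested probe sets, 7.29% higher and 6.39% lower. By gene, 6 of the 9 were higher, 1 was lower and 2 did not pass, beside 15.4% of 10035 genes called, 8.27% higher and 7.14% lower. The names were chosen on this contrast, so nothing is read from these counts. Below, rose and fell refer to this call, and each log2 difference is cAMP minus control on the log2(signal + 16) scale, ± its standard error with n = 2 arrays per group. Where 1 array was left out, its group kept 1 array, and the fit took the spread from the other group. Passing or not passing then does not measure the spread of the group left with 1 array.

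**Figure D1:**
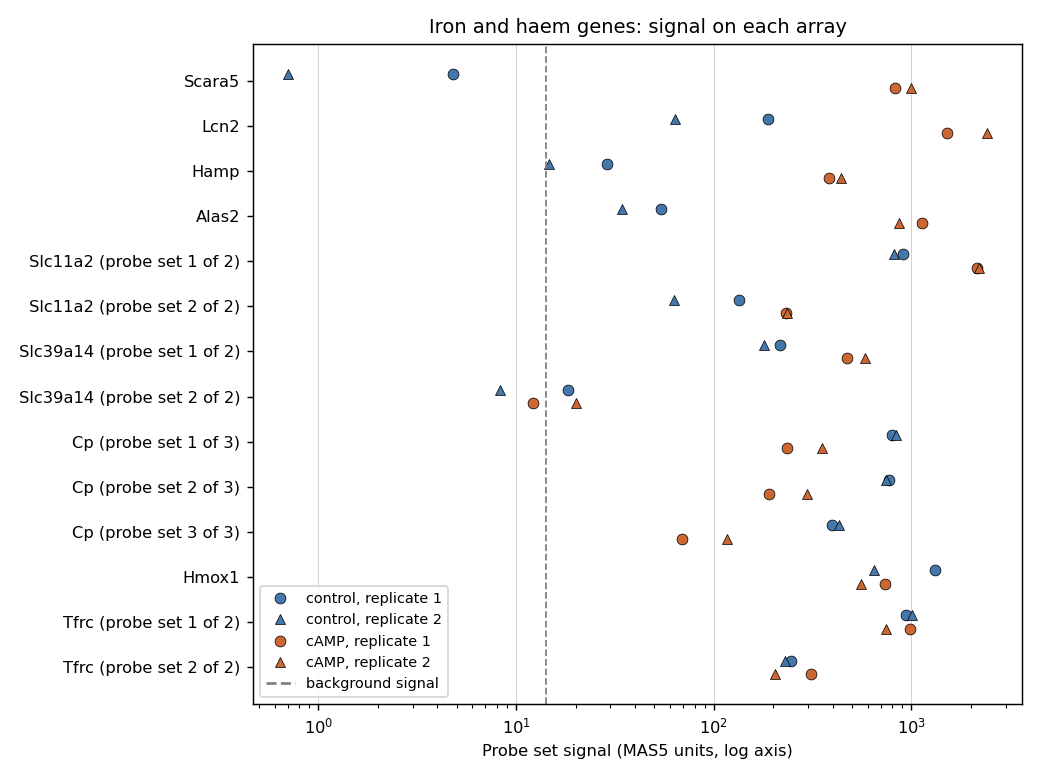
Signal of each of the 14 probe sets (rows) on each of the 4 arrays, on a log axis in MAS5 units, with circles for replicate 1, triangles for replicate 2, blue for control and orange for cAMP. The dashed line is the background signal of 14.2; the Scara5 control arrays lie left of it, the cAMP arrays of Scara5, Lcn2, Hamp and Alas2 lie far right of their control arrays, the Cp arrays are in the opposite order, and those of Tfrc and Hmox1 overlap.

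Scara5 encodes a scavenger receptor that binds ferritin and brings its iron in without transferrin. Its signal was 4.8 and 0.7 on control replicates 1 and 2, against 822.4 and 996.2 on cAMP replicates 1 and 2. Both control arrays lay below the background signal of 14.2, the highest value of the 27 Bacillus control probe sets, and both cAMP arrays lay far above it. Scara5 was thus at least 63.7-fold higher with cAMP, counting each control array at the background. Its fitted log2 difference, which depends on the pseudocount because the control arrays were at background, was 5.63 ± 0.20. It was also the 1 tested probe set among the 13 that would have lain under the filter on dim signals by its control arrays alone, so once it was tested it had to differ.

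Tfrc, the transferrin receptor gene, was bright in both groups and did not pass. The brighter of its 2 probe sets read 934.4 and 1003.6 on the control arrays against 979.3 and 743.1 on the cAMP arrays. The other read 246.8 and 229.3 without cAMP, and 310.6 and 205.3 with it. In both probe sets the groups overlapped, with cAMP replicate 1 above cAMP replicate 2. The log2 differences were -0.18 ± 0.16 (95% interval -0.56 to 0.20) and 0.08 ± 0.21 (-0.41 to 0.57). Both intervals include 0. Each of the Tfrc differences changed sign when 1 cAMP array was left out, to 0.016 for the brighter probe set without cAMP replicate 2 and to -0.20 for the other without cAMP replicate 1.

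Lcn2 encodes lipocalin 2, a secreted protein that binds iron-laden siderophores. Its signal was 187.9 and 63.5 on control replicates 1 and 2, against 1517 and 2426.1 on cAMP replicates 1 and 2. The groups did not overlap, although the 2 control arrays themselves stood 2.96-fold apart. The group means were 125.7 ± 88.0 and 1971.5 ± 643 (mean ± SD), and the log2 difference was 3.93 ± 0.42, the widest error among the 13 probe sets. Leaving out each array in turn moved it between 3.25 and 4.61, and Lcn2 passed each time. The gene Slc22a17, which encodes a receptor proposed for lipocalin 2, did not pass: its signals were 322.4 and 345.1 on the control arrays against 368 and 341.2 on the cAMP arrays (0.08 ± 0.14, adjusted p by limma = 0.752).

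The metal transporters rose by a smaller amount. Slc11a2 encodes DMT1, the transporter that carries ferrous iron out of the endosome of the transferrin cycle. Its brighter probe set read 905 and 812.4 on the control arrays against 2137.3 and 2195.5 on the cAMP arrays. The arrays of each group lay close together and the groups were well apart, with a log2 difference of 1.32 ± 0.12, the smallest error among the 13 probe sets. The dimmer probe set read 133.7 and 63.1 without cAMP and 231.8 and 234.5 with it (1.20 ± 0.29). Here the control arrays differed 2.12-fold from each other while the cAMP arrays were nearly equal, and the difference was 1.30 times the gap between the control arrays on the log2 scale, against 8.64 times the larger replicate gap for the brighter probe set. The dimmer probe set did not pass without cAMP replicate 1 (1.20 ± 0.40) or without cAMP replicate 2 (1.19 ± 0.40), while the brighter one passed whichever array was left out.

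Slc39a14 encodes ZIP14, a surface transporter for iron that is not bound to transferrin and for zinc and manganese. One of its 2 probe sets rose, from 217.6 and 179.1 on the control arrays to 473.4 and 585.2 on the cAMP arrays, without overlap (1.35 ± 0.17). Without cAMP replicate 2 the difference was 1.20 ± 0.25 and just missed the threshold; it passed without each of the other 3 arrays. The other probe set read 18.3 and 8.3 without cAMP and 12.2 and 20.1 with it. These values lie around the background, the groups overlap, and the probe set was too dim to be tested.

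**Figure D2:**
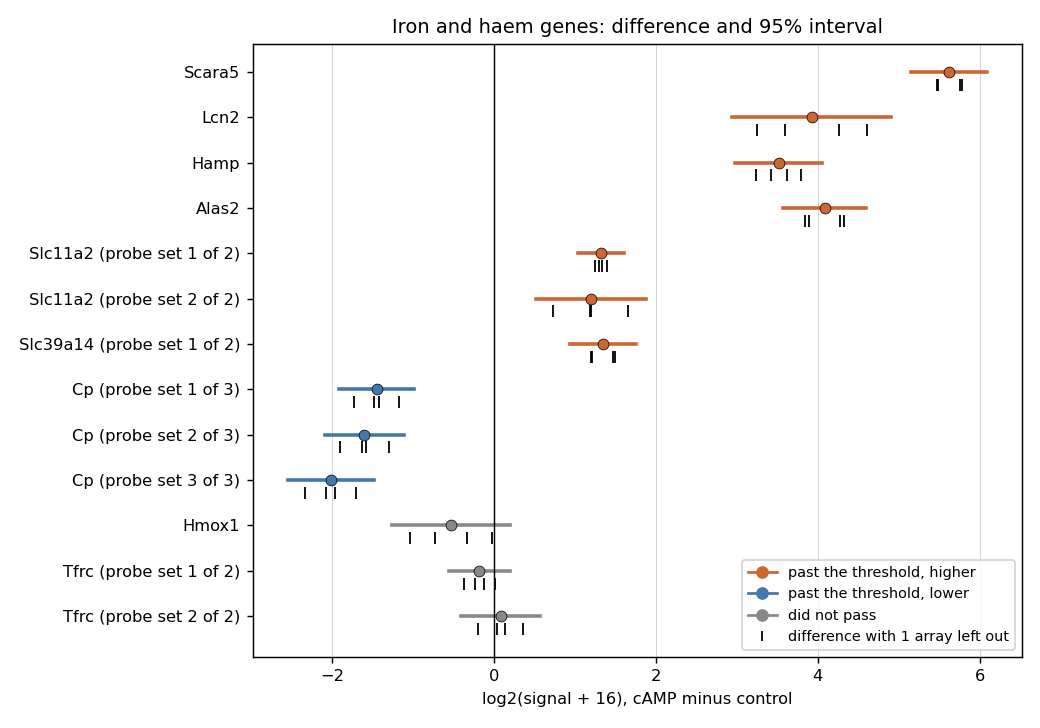
The log2 difference, cAMP minus control, of each of the 13 tested probe sets (dots) with its 95% interval from limma (lines), orange where higher, blue where lower and grey where it did not pass. Black ticks under each line are the differences with 1 array left out; the ticks of Hmox1 run from -1.03 to -0.024 and those of Lcn2 from 3.25 to 4.61, while those of the brighter Slc11a2 probe set stay between 1.24 and 1.40.

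Both genes that bear on iron export changed, in opposite directions. Hamp encodes hepcidin, the peptide hormone that blocks ferroportin and is best known from the liver. Its signal rose from 29 and 14.6 on the control arrays to 381.3 and 438.6 on the cAMP arrays. Control replicate 2 lay just above background, the cAMP arrays were close together, and the groups were far apart (3.52 ± 0.23). Hamp passed with any 1 array left out, its difference then lying between 3.24 and 3.80. Of the 9 hepatocyte marker genes measured, 7 lay at or below background on all 4 arrays, and the brightest, Cyp2e1, fell from 51.8 and 58.8 to 17.4 and 12.3 (-1.21 ± 0.21). By its cAMP arrays alone Cyp2e1 lay under the filter on dim signals, so it was tested only through its control arrays. Among the 7 was albumin (Alb), at 4.1 and 4.9 without cAMP and 10.5 and 4.6 with it.

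Cp encodes ceruloplasmin, a copper-bearing ferroxidase that readies exported iron for transferrin and that Sertoli cells are known to make. All 3 of its probe sets fell. The first read 795.1 and 832.9 on the control arrays against 234.4 and 353.2 on the cAMP arrays (-1.45 ± 0.20). The next read 766.5 and 739.9 against 190 and 296.8 (-1.60 ± 0.21), and the third read 397 and 430.3 against 69.4 and 116.2 (-2.01 ± 0.23). In each of the 3 the control arrays differed by only 1.04-fold to 1.08-fold, cAMP replicate 1 was the lowest array, and the groups did not overlap. All 3 passed with any 1 array left out. The probe sets share a target gene and are not replicates of each other.

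The gene of the exporter itself was not called. Slc40a1, which encodes ferroportin, has 3 probe sets, and none passed. The brightest read 246.3 and 155.4 without cAMP and 196.9 and 217.5 with it, with overlap (0.07 ± 0.22, adjusted p by limma = 0.867). Another read 206 and 192.1 against 132 and 132, without overlap (-0.54 ± 0.16, adjusted p by limma = 0.0693). The third read 73.6 and 71.6 against 57.7 and 65, also lower without overlap (-0.20 ± 0.19, adjusted p by limma = 0.54). The membrane ferroxidase gene Heph was too dim to be tested.

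Haem synthesis and breakdown were represented by Alas2 and Hmox1. Alas2 encodes the erythroid form of 5-aminolevulinate synthase, the first enzyme of haem synthesis. Its signal rose from 54 and 34.4 on the control arrays to 1134.7 and 865.3 on the cAMP arrays. All 4 arrays were above background and the groups were far apart (4.08 ± 0.22). The difference stayed between 3.85 and 4.32 with any 1 array left out, and Alas2 passed each time. Of the 11 erythroid markers measured of 15 listed, 5 lay at or below background on all 4 arrays, and 0 of the 2 tested was called by limma (0 also at an unadjusted p under 0.05). Their summed signal was 116.9 and 124.5 on the control arrays against 160 and 146.7 on the cAMP arrays. The largest part of each sum was the brightest gene, Gata1, at 45.9 and 48.8 without cAMP and 51.2 and 58.1 with it. Which cells gave the Gata1 signal was not tested. The anion exchanger gene Slc4a1 read 9.8 and 10.9 without cAMP, both below background, and 27.6 and 21.2 with it, at least 1.70-fold higher, but was too dim to be tested. The beta-globin gene Hbb read 5.3 on both control arrays and 22.9 and 3.8 with cAMP. The part of erythroid cells in the Alas2 result was not tested.

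Alas1, the form of the same enzyme used in most tissues, did not pass, with signals of 584.2 and 239.2 on control replicates 1 and 2 and 698.7 and 589.6 with cAMP (0.75 ± 0.35, adjusted p by limma = 0.219). The groups barely separated, and control replicate 2 was the low array. Without control replicate 1 the Alas1 difference was 1.37 ± 0.15 and passed (adjusted p by limma = 0.000798). Of the 11 tested genes of haem synthesis other than Alas2, Alas1 included, 0 passed by limma, beside 15.4% of all tested genes, and with 11 genes nothing is read from the 0. At an unadjusted p under 0.05 there were 2 higher (Uros and Fech) and 1 lower (Abcb10). Among the 11, Urod read 675.4 and 648.4 without cAMP and 740.3 and 658.5 with it (0.08 ± 0.13). Tmem14c, a carrier of haem precursors in mitochondria, read 672.8 and 563.7 against 673 and 573.9 (0.01 ± 0.15). Fech, the last enzyme of the pathway, gave 0.47 ± 0.19 and passed only when control replicate 1 was left out (0.72 ± 0.14).

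Hmox1 encodes haem oxygenase 1, the stress-inducible enzyme that opens haem and frees its iron. Its signal was 1323.1 and 648.5 on control replicates 1 and 2, against 733.3 and 554.2 on cAMP replicates 1 and 2. The groups overlapped, and the 2 control arrays differed more from each other than the group means did. Hmox1 did not pass (-0.53 ± 0.31, 95% interval -1.26 to 0.20). Its reading rests on which control array is used: without control replicate 2 it fell by 1.03 ± 0.17 and passed, and without control replicate 1 the difference was -0.024. The constitutive form Hmox2 did not pass either (-0.36 ± 0.17, adjusted p by limma = 0.227).

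The differences can be set against the replicate spread of the same probe sets. In 10 of the 13 tested probe sets the log2 difference was larger than the wider of the 2 replicate gaps, beside 45.7% of all tested probe sets. In the same number, 10, the groups did not overlap, beside 58.2% of all tested probe sets. The control arrays stood over 2-fold apart in 4 of the 13, beside 6.69% of all tested probe sets. These were Scara5, with both control arrays below background, Lcn2 (2.96-fold), the dimmer Slc11a2 probe set (2.12-fold) and Hmox1 (2.04-fold). Control replicate 1 was above control replicate 2 in 11 of the 14 member probe sets, beside 50% of all tested probe sets.

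Promoter windows give the sequence context for some of these genes. RefSeq windows of assembly GRCr8, from 250 bases before to 50 after an annotated start, were at hand for 7 of the 10 genes, with 2 windows for Slc11a2, so 8 in all. The 250 upstream bases were searched on both strands for the cAMP response element TGACGTCA and its short core TGACG, which lies inside it. They were also searched for the E-box CANNTG, the site type bound by bHLH factors, the family this series is about. The E-box form CACGTG, the C/EBP-type letters TTGCNNAA and the GATA-type letters AGATAA were searched for in the same way. The 2 windows below are shown because 1 belongs to a gene that rose and the other to the gene that did not pass in both probe sets, and because their annotated starts lie at the outer end of the gene. Capitals mark E-boxes and TGACG cores.
Hamp, chr1:95300272-95300521, minus strand: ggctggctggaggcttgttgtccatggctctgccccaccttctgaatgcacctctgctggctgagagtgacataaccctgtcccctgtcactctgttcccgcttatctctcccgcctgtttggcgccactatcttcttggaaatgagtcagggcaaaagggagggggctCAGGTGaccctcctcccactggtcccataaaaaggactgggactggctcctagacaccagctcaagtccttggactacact
Tfrc, chr11:81690319-81690568, minus strand: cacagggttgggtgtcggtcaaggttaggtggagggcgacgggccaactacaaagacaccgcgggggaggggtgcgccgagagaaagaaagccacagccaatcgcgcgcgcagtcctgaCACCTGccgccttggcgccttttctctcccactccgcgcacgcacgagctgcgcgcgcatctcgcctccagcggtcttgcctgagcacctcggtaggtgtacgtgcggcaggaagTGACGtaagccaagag
The Hamp window holds 1 E-box, starting 81 bases upstream of the start, and no TGACG core. The Tfrc window holds 1 E-box 131 bases upstream and the TGACG core 16 bases upstream.

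Across the 8 windows, 0 held the full element TGACGTCA, which 1.59% of all 33469 windows held. The TGACG core was found in 1 of the 8, that of Tfrc, against 18.2% of all windows. E-boxes were found in 4 of the 8 (Hamp, Tfrc, Tf and 1 window of Slc11a2), against 65.5% of all windows. The E-box form CACGTG was found in 0 of the 8, against 5.59% of all windows. The C/EBP-type letters TTGCNNAA occurred in 3 of the 8 (Cp, Lcn2 and Tf) against 9.22% of all, and the GATA-type letters AGATAA in 2 of the 8 (Hamp and Alas2) against 10.3% of all. The annotated start behind the Alas2 window lies 4800 bases inside the gene's outer end, and those behind the 2 Slc11a2 windows lie 12133 and 10982 bases inside. For Cp and Lcn2 the distances are 334 and 71 bases. These matches describe letters in these windows only.

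Other genes of iron and haem handling went both ways. Of 73 further genes listed by role, 62 had a probe set of their own and 49 were tested, of which 3 were higher, 3 were lower and 43 did not pass. That is 12.2% called, near the 15.4% of all tested genes. Their median log2 difference was 0.10, beside -0.03 over all tested genes. The groups did not overlap for 31 of the 49, beside 61.3% of all tested genes. The ferritin subunit genes Fth1 and Ftl1 had no probe set with their symbol alone.

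The 3 higher genes of that set act in the transferrin cycle and in haem handling. Exoc6, a subunit of the exocyst that returns transferrin vesicles in red cell precursors, rose from 47.8 and 55 to 146.8 and 170.3 (1.37 ± 0.19, adjusted p by limma = 0.00364). Hpx encodes haemopexin, the plasma scavenger of free haem, and rose from 20.9 and 16.1 to 79.4 and 149.3 (1.87 ± 0.29, adjusted p by limma = 0.00595). Flvcr2, a membrane transporter linked to haem and choline, rose from 49.7 and 48 to 121.6 and 176.6 (1.33 ± 0.22, adjusted p by limma = 0.00779). For Hpx and Flvcr2 the cAMP arrays were further apart than the control arrays, with cAMP replicate 2 the higher. Exoc6 and Flvcr2 did not pass without cAMP replicate 2.

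The 3 lower genes changed less. Slc48a1 encodes HRG1, which moves haem out of endosomes and lysosomes, and fell from 262.5 and 217.6 to 117.6 and 130.9 (-0.86 ± 0.17, adjusted p by limma = 0.0179). Glrx5, a mitochondrial glutaredoxin of iron-sulphur cluster assembly, fell from 987.5 and 1039.9 to 667.5 and 625.9 (-0.64 ± 0.13, adjusted p by limma = 0.0171). Pcbp2, an RNA-binding protein that also delivers iron, fell from 1976.6 and 2016.2 to 1376.6 and 1272.9 (-0.59 ± 0.12, adjusted p by limma = 0.0168), while its 2 other probe sets did not pass. The groups did not overlap for any of the 3. None of the 3 passed when either cAMP array was left out: limma then gave 3 higher and 0 lower without cAMP replicate 1, and 1 higher and 0 lower without cAMP replicate 2 (at an unadjusted p under 0.05, 4 higher and 4 lower, and 3 higher and 4 lower). Without control replicate 1 the set had 8 higher and 4 lower.

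**Figure D3:**
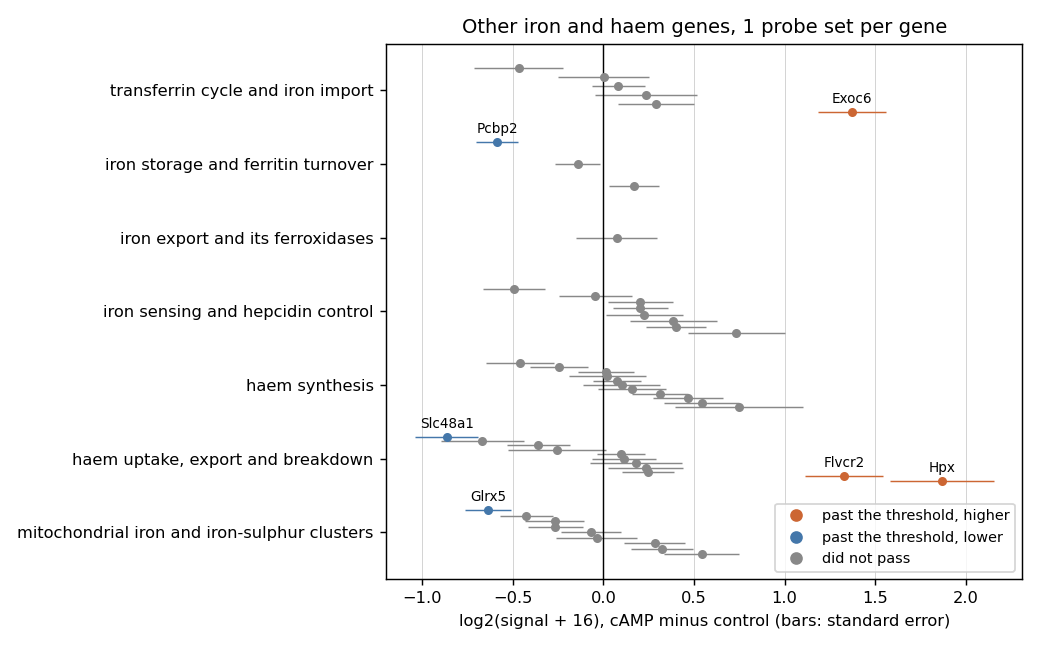
The log2 difference, cAMP minus control, of each of the 49 other tested iron and haem genes, 1 probe set a gene, in 7 rows by role, with bars of 1 standard error. The 6 genes past the threshold are named, 3 higher in orange and 3 lower in blue; the 11 haem synthesis genes and the 8 genes of iron sensing and hepcidin control hold none.

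Of 8 tested genes that sense iron or steer hepcidin, 0 passed by limma, beside 15.4% of all tested genes, so with 8 genes nothing is read from the 0, and at an unadjusted p under 0.05 there were 2 higher and 1 lower. Bmp6, a ligand that drives hepcidin in the liver, read 206.7 and 126.4 without cAMP and 238.6 and 196.9 with it, with overlap (0.39 ± 0.24), and passed only without control replicate 1 (0.71 ± 0.18). Those values are from the brightest Bmp6 probe set. Another read 87.9 and 52.8 against 113.1 and 109.4, without overlap, and did not pass (0.59 ± 0.23, adjusted p by limma = 0.15). The remaining Bmp6 probe sets were too dim to be tested. Bmp2, another ligand that drives hepcidin, read 12.2 and 13.6 without cAMP, both below background, and 22.2 and 44.3 with it. It was at least 2.21-fold higher, counting each control array at the background, but did not pass (adjusted p by limma = 0.123). By its control arrays alone Bmp2 lay under the filter on dim signals, so it was tested only through its cAMP arrays. Bmp2 is among the genes counted above as higher at an unadjusted p. Neo1, a receptor that binds the hepcidin coactivator hemojuvelin, gave 0.20 ± 0.15 by its brightest probe set. Another Neo1 probe set gave 0.47 ± 0.21, and neither passed. Fbxl5, the iron-sensing part of a ubiquitin ligase, read 243 and 306.8 against 367.8 and 363.8, without overlap (0.40 ± 0.16), and passed only without control replicate 2 (0.56 ± 0.14). Hjv, the gene of hemojuvelin itself, was too dim to be tested, with a highest signal of 10.9. Aco1, the cytosolic aconitase that doubles as an iron regulatory protein, gave -0.49 ± 0.17 (adjusted p by limma = 0.107).

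Within the transferrin cycle, the endosomal ferrireductase gene Steap3 gave -0.47 ± 0.24 and the related Steap2 0.00 ± 0.25, and neither passed. Tfr2 and Hfe, partners in iron sensing at the cell surface, were too dim to be tested. Among genes that store or build in iron, Ncoa4, the receptor that takes ferritin to the lysosome (0.17 ± 0.14), Pcbp1 (-0.14 ± 0.13), the scaffold gene Iscu (0.28 ± 0.17) and Isca1 (0.54 ± 0.21) did not pass by their brightest probe sets, nor did Fdx2 (-0.43 ± 0.15). The other probe set of Isca1 read 328.3 and 297.4 against 500.5 and 476.9 and was called higher (0.62 ± 0.14, adjusted p by limma = 0.0294). Of the haem handling genes, Pgrmc1 (0.25 ± 0.14) and the brighter probe set of Lrp1, the haemopexin receptor (0.10 ± 0.13), did not pass. The other Lrp1 probe set read 25.7 and 42.6 without cAMP and, below background, 2.9 and 2.6 with it. That is at least 2.33-fold lower with cAMP, but the probe set was too dim to be tested.

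The median signal was 31.3 to 33.7, and 64.2% to 66.3% of the probe sets lay above background. The 3' to 5' actin ratio, a sign of RNA integrity, was 1.80 and 2.25 without cAMP and 1.86 and 1.65 with it, highest on control replicate 2. Of the Sertoli markers, 10 measured, Clu was at 6857.9 and 7277.8 without cAMP and 6071.5 and 6409.7 with it, while Amh ranged from 56.4 to 104 and Rhox5, too dim to be tested, from 5.7 to 21. The list summed to 21018.5 and 22326.1 against 24451.4 and 25280.2. Inha, at 951.6 and 1242.8 against 4344.6 and 4732.6, made up that rise. Of the 9 tested, Inha, Dhh and Shbg rose and Gata4 fell, while Sox9 and Fshr had no probe set of their own. All 6 measured markers of neutrophils, cells rich in lipocalin 2, lay at or below background on all 4 arrays.

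Peritubular myoid markers, 7 measured, summed to 614 and 460.8 without cAMP and 181.7 and 221.1 with it, with 2 lower (Tagln and Synpo2) and 1 higher (Des). Tagln, at 344.5 and 264.3 against 1.3 and 7.4, made up most of that fall. By their cAMP arrays alone Tagln and Synpo2 lay under the filter on dim signals, so they were tested only through their control arrays. Acta2 read 109.6 and 60.6 against 67.1 and 73.2, with overlap, and did not pass. Endothelial markers, 5 measured, summed to 236.9 and 160.1 against 97.1 and 98.5, with 1 lower (Kdr). Most of this sum was Kdr, at 187.3 and 130.8 against 57.5 and 58.1. Macrophage markers, 12 measured, summed to 266 and 402.9 against 259.1 and 280.8, and 6 of them lay at or below background on all arrays. Members of that list differed: Cd68 went from background, at 4.1 and 6.2, to 28.1 and 45.2, at least 2.51-fold higher though too dim to be tested, while Lyz2 read 47.3 and 108.6 against 26.4 and 27.6 and the brightest, Mrc1, 133.4 and 208 against 125.5 and 107.2, and neither passed. Germ cell markers, 7 measured, with Sycp3 at 2339.6 and 2298 against 2257.7 and 1753.6, summed to 3183.1 and 3019.8 against 3105.4 and 2367.4, and Leydig markers, 6 measured and led by Cyp11a1, to 95 and 90.1 against 90.1 and 73.5. The part of these cells in the results above was not tested. In such bulk samples fewer cells of a type and less RNA per cell cannot be told apart.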

How the data were processed

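The authors deposited linear intensities, 1 per probe set and array. The submitters' processing notes name GCOS and MAS5 without versions or settings. The mean without the lowest and highest 2% of values was 125 on each array, so the arrays had been scaled before deposit. A platform annotation gave 20832 probe sets 1 gene symbol; 436 with several and 9831 with none were not named. A RefSeq table of assembly GRCr8 held the gene of 20764 of the probe sets with 1 symbol and gave the symbol used for them. From the intensities log2(signal + 16) was computed without further normalization, and probe sets other than the 57 controls with a mean at or above the 40th percentile (5.10) entered a linear model (limma 3.58.1, R 4.3.3; lmFit, eBayes with an intensity trend, two-sided, Benjamini-Hochberg, threshold 0.05). Where all arrays of a group lay at or below 14.2, the fold is a lower bound from geometric means. The procedure was also run on simulated data with independent noise of equal spread in both groups. Nothing about the calls is read from that run. Having 2 arrays per group limits the precision.

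The members and lists were chosen with earlier results of these data known. Named are all member probe sets, the listed iron genes past the threshold, up to 3 of the brightest others per role, and markers past the threshold or brightest of their list. Tfr2, Hfe, Hjv, Heph, Bmp2, Aco1, Fech, Uros, Abcb10, Alb, Hbb, Slc4a1, Acta2, Cd68, Lyz2, Amh, Rhox5, Sox9 and Fshr were named after their values were seen. A gene with several probe sets is counted by the brightest. Alternatives changed the pseudocount, scaling, filter, variance model, background, block, probe set and arrays. Same-numbered replicates deviated together with r = 0.163 across probe sets, which are not independent, and the labels give the numbers no shared origin.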

Additional observations from a re-analysis of the deposited data

How the results depend on the processing

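Among the 10 genes, the counts of 7 higher and 3 lower probe sets ranged from 5 to 7 and from 3 to 4 when 1 array was left out, and were 6 and 3 with all probe sets tested or with no intensity trend, where the dimmer Slc11a2 probe set was lost. Over all probe sets, 873 were higher and 725 lower without the filter, and leaving out 1 array gave 396 to 2467 higher and 314 to 2381 lower. The other iron and haem genes gave 1 to 8 higher and 0 to 4 lower with 1 array left out, and 1 lower without the intensity trend. A group left with 1 array is assumed to vary like the other. With the replicate number as a block, 1540 probe sets were higher and 1495 lower, 7 and 3 of the members, and 3 and 3 of the other iron genes; the labels do not say that the numbers pair the samples.

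Of 441 values of single probe sets under an alternative, 411 kept their direction and side of the threshold, 15 no longer passed, 6 came to pass and 9 changed sign, none of which had passed. With 1 array left out the Tfrc differences ran from -0.20 to 0.36 and from -0.37 to 0.016, Steap2 from -0.29 to 0.29, Slc40a1 from -0.23 to 0.38, Urod from -0.0070 to 0.16 and Tmem14c from -0.11 to 0.14. Steap2 was -0.0066 with a pseudocount of 64. The fitted difference of Scara5 ran from 3.86 to 8.17 over the settings, since its control arrays lay at background. The cause of the other shifts was not tested.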
